A study of Homo sapiens with 6 samples.

Results

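The clustered histone genes are the genes whose names begin with HIST1H, HIST2H, HIST3H or HIST4H, which lie in groups on chromosomes 6 and 1 and singly elsewhere. They were taken by name from the deposited table, leaving out 4 rows with pseudogene names, which gave 55 members of 29153 listed genes. By histone class these were 4 genes for H1, 12 for H2A, 16 for H2B, 12 for H3 and 11 for H4. On chromosome 6 lay 42 of them, on chromosome 1 another 12, and HIST4H4 lay on chromosome 12. RNA was sequenced from HepG2, an established line of human liver cancer cells, collected 72 h after lentivirus had delivered a short hairpin RNA, with 3 libraries in each of the 2 groups. The control cells carried a control hairpin (sh-NC), and the knockdown cells carried a hairpin against the long noncoding RNA LINC01977 (sh-LINC01977, given in the labels as sh3), so both groups shared the line, the lentivirus and the time. Only 1 hairpin against LINC01977 was sequenced, and nothing in the labels says that libraries of a group came from separate cultures, so p-values measure the spread between these libraries. The study's methods give puromycin selection of the infected cells. The comparison asks which genes differ in RNA level between the knockdown and the control cells.

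Clustered histone genes supply the bulk of new histone protein when DNA is copied, and their mRNAs are known to accumulate in S phase and to be destroyed when replication ends. H2A, H2B, H3 and H4 form the core of the nucleosome and H1 binds the linker DNA between nucleosomes. Unlike other mRNAs, those of clustered histone genes usually end in a conserved stem-loop in place of a poly(A) tail. The stem-loop is bound by SLBP, and cleavage after it requires the U7 small nuclear RNP. Some clustered genes, HIST1H1C, HIST1H2AC, HIST1H2BD and HIST2H2BE among them, are also known to give polyadenylated mRNA in cells that have stopped dividing. A library made from poly(A) RNA holds few of the stem-loop transcripts. Whether poly(A) RNA was selected here is not given in the sources used here, so the levels below are those of whichever transcripts the libraries captured.

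The stem-loop is the sequence that sets these transcripts apart, and it was searched for in GENCODE 29 transcripts (GRCh38). The 16 bases searched, on the transcript's strand, were GG, 3 bases, TTTT, any base, A, 3 bases that pair with the first 3, and CC. It was present in transcripts of 29 of the 55 members, and in 43 of 58676 annotated genes (0.0733%) as a whole. The 9 members that the results turn on, 1 or more from each core class, are shown with 5 bases on either side and the stem-loop in capitals.
HIST1H2AC: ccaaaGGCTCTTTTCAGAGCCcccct
HIST1H2AI: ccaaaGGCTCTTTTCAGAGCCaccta
HIST2H2AA3: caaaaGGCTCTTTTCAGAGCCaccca
HIST1H2BC: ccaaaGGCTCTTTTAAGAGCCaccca
HIST1H2BD: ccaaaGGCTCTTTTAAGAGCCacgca
HIST2H2BE: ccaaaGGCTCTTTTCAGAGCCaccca
HIST1H3H: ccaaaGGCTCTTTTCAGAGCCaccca
HIST1H4J: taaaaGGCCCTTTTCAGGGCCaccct
HIST2H4B: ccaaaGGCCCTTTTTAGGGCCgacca
In the order shown, those on the plus strand are chr6:26124664-26124689 (HIST1H2AC), chr6:27808642-27808667 (HIST1H2AI), chr6:26158582-26158607 (HIST1H2BD), chr6:27810511-27810536 (HIST1H3H) and chr6:27824454-27824479 (HIST1H4J). Those on the minus strand are chr1:149842218-149842243 (HIST2H2AA3), chr6:26123467-26123492 (HIST1H2BC), chr1:149886183-149886208 (HIST2H2BE) and chr1:149860764-149860789 (HIST2H4B). All 29 stem-loops lie in the annotated 3′ UTR, after the coding sequence. The H2A, H2B and H3 genes shown share the form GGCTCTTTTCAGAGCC, found in 16 members, or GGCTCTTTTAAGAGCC, found in 5. The H4 genes had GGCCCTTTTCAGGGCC in 5 members or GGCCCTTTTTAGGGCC in 3, and both of these forms were found in H4 genes alone among the members. In the annotation the transcript ended 6 bases after the stem-loop in HIST1H4J, 39 in HIST1H2AI and HIST1H2BD, and 116 in HIST1H2BC. It ran on for 769 bases in HIST1H3H, 1128 in HIST1H2AC and 1729 in HIST2H2BE. The annotated model ran over 100 bases past the stem-loop in 20 members and ended within 100 bases of it in 9. In 25 members no stem-loop was found in the model. HIST1H1C, the main H1 gene, was one of these, with a model of 642 bases. Others were as short as 381 bases (HIST1H2BK) or 411 bases (HIST1H3C). Not all were short: the longest transcripts of HIST1H3E, HIST1H2AG and HIST1H2BJ had 2679, 2250 and 950 bases. In each of these 3 genes the poly(A) signal AATAAA was found in the last 50 bases of a transcript. A model that leaves out the 3′ UTR cannot hold the stem-loop, and a stem-loop that departs from the pattern searched would be missed. Its absence from a model therefore does not show that the transcript lacks it. Identifiers of 54 members were found in GENCODE 29, all at the coordinates of the table and all typed as protein coding. That of HIST2H2BC was not found. Its gene type was therefore not read, and it is a member by name alone.

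The promoters were read for motifs that members of a class share. RefSeq promoters (GRCh38.p14), from 250 bases before to 50 after the start, were matched for 47 members. The 3 shown are those of the main H2A gene, the H2A gene with the largest difference and the main H4 gene, with matches in capitals to the octamer ATTTGCAT and the CCAAT box on either strand and to TATAAA on the gene's own strand. They are from chr6:26123922-26124221, chr6:27807923-27808222 and chr6:27823842-27824141, all on the plus strand.
HIST1H2AC: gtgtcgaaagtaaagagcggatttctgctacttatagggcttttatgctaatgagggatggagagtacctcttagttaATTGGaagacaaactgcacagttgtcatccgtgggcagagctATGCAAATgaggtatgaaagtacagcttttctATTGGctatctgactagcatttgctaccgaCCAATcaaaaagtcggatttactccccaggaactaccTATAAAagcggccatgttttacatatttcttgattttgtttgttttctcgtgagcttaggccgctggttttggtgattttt
HIST1H2AI: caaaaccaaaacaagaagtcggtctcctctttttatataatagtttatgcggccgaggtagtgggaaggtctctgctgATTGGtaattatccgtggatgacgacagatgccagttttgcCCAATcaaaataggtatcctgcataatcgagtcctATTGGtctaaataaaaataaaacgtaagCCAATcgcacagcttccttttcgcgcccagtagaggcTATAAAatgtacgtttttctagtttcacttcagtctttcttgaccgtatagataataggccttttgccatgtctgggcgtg
HIST1H4J: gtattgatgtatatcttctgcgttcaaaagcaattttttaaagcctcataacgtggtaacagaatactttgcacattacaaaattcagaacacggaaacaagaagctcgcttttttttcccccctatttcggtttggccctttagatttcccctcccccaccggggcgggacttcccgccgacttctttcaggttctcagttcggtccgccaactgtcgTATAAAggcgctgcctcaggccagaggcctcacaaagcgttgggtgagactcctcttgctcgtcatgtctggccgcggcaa
The octamer was found in 9 of 12 H2A and 11 of 13 H2B promoters and in none of the 4 H1, 8 H3 and 10 H4 promoters, against 1.77% of 35116 RefSeq promoters of the same length. As shown, it is in the HIST1H2AC promoter and not in that of HIST1H2AI. CCAAT was found in every H1, H2A, H2B and H3 promoter matched and in 1 of 10 H4 promoters (34.6% of all promoters). TATAAA was found in 59.6% of the members' promoters and 7.33% of all promoters. In 9 places an H2A and an H2B gene faced away from each other with starts 219 to 323 bases apart, so that these pairs share most of 1 promoter window.

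The clustered histone genes were at low levels in all 6 libraries. Total counts were 49929024 to 60441515 per library, and the 55 members together took 2861 to 3470 of them, or 50.5 to 60.8 CPM (counts scaled to a common library size, here the total). By FPKM, which is scaled to transcript length and so allows genes to be compared, HIST1H1C stood highest with a mean of 14.5 over the 6 libraries, and HIST1H4J followed with 10.6. HIST1H1C made up 98.8% of the summed FPKM of the H1 genes, HIST1H4J 70.8% of H4 and HIST1H3H 39.4% of H3. H2A and H2B were more evenly spread, with HIST1H2AC at 19.9% and HIST1H2BC at 18.9% of their classes. A mean of at least 1 FPKM was reached by 7 H2A genes, 4 H2B genes, 2 H4 genes and 1 gene each of H1 and H3. Members whose model ended within 100 bases of the stem-loop held 37.1% of the members' FPKM, and those whose model ran further 18.6%. Members with no stem-loop in the model, HIST1H1C among them, held 41.0%. This split is by annotated model, which may leave out the 3′ UTR, and not by the 3′ end of the RNA. HIST2H2BC, which could not be placed, held the other 3.30%.

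**Figure D1:**
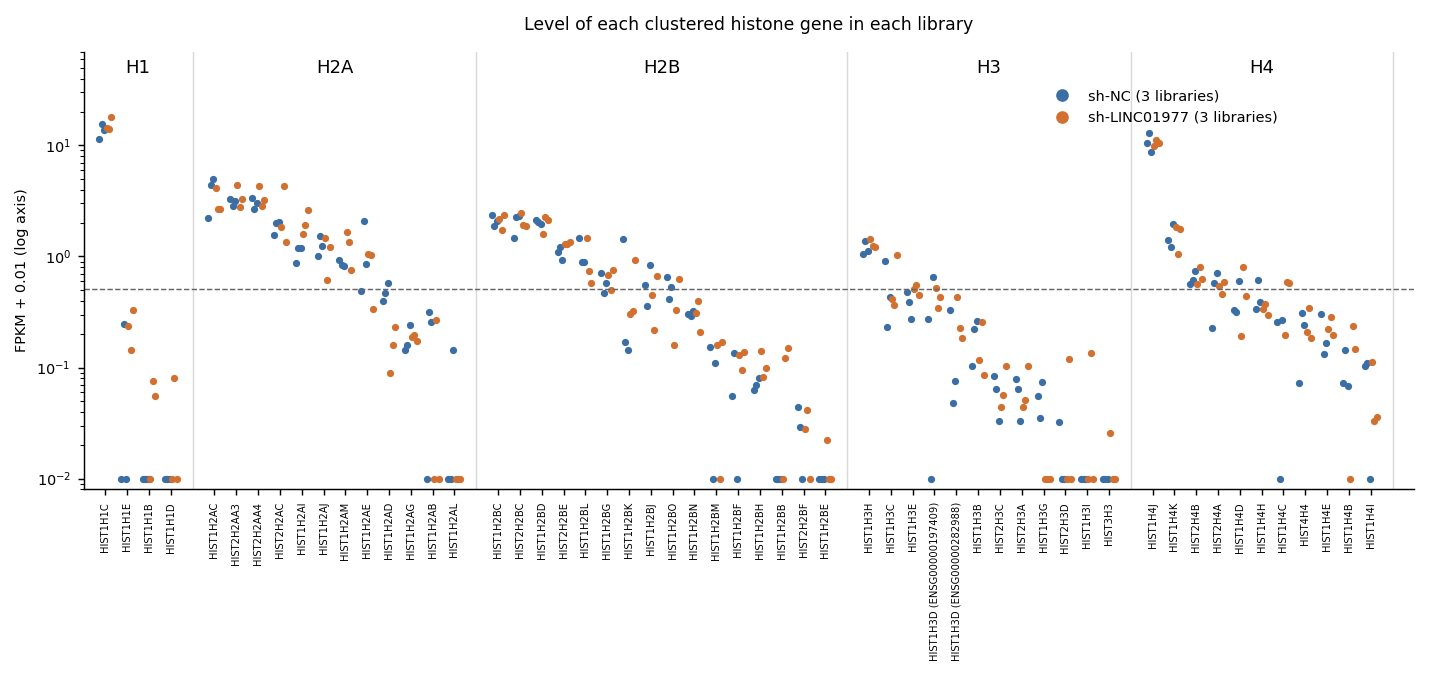
FPKM plus 0.01 (log axis) of each of the 55 clustered histone genes in each library, ordered by class and mean level, with sh-NC libraries in blue and sh-LINC01977 libraries in orange. The dashed line marks 0.5 FPKM, and points at the bottom are libraries with no counts. HIST1H1C and HIST1H4J stand above the rest of their classes, and blue and orange points overlap for most genes.

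Of the 55 members, 23 passed the filter of a mean FPKM of at least 0.5 and were tested with the 13452 genes that did. These were 1 H1, 8 H2A, 8 H2B, 2 H3 and 4 H4 genes. None was higher and none lower in sh-LINC01977 cells at an adjusted p under 0.05 by the quasi-likelihood test of edgeR (Benjamini-Hochberg), where 7.05% of all tested genes were higher and 8.07% lower. DESeq2 also gave 0 in each direction, while limma on log2(FPKM + 0.1) gave 1 higher, HIST1H2AI. Among all tested genes DESeq2 called 1360 higher and 1485 lower, and this limma fit 1269 and 729. At an unadjusted p under 0.05 edgeR gave 1 of 23, again HIST1H2AI, where 30.5% of all tested genes passed. No tested member passed a fold change of 2 with P of 0.05, against 1.55% of all tested genes higher and 1.05% lower. A log2 fold change above 0 was found in 11 members (49.8% of all tested genes were above 0) and one below 0 in 12, with a median of -0.0028 beside -0.0010 over all tested genes. The 95% intervals of the log2 fold changes reached from 0.352 to 2.31 either side of the estimate, with a median of 0.653, so the precision differed widely between members. In 13 of 23 the whole interval lay within a fold change of 2 in either direction.

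**Figure D2:**
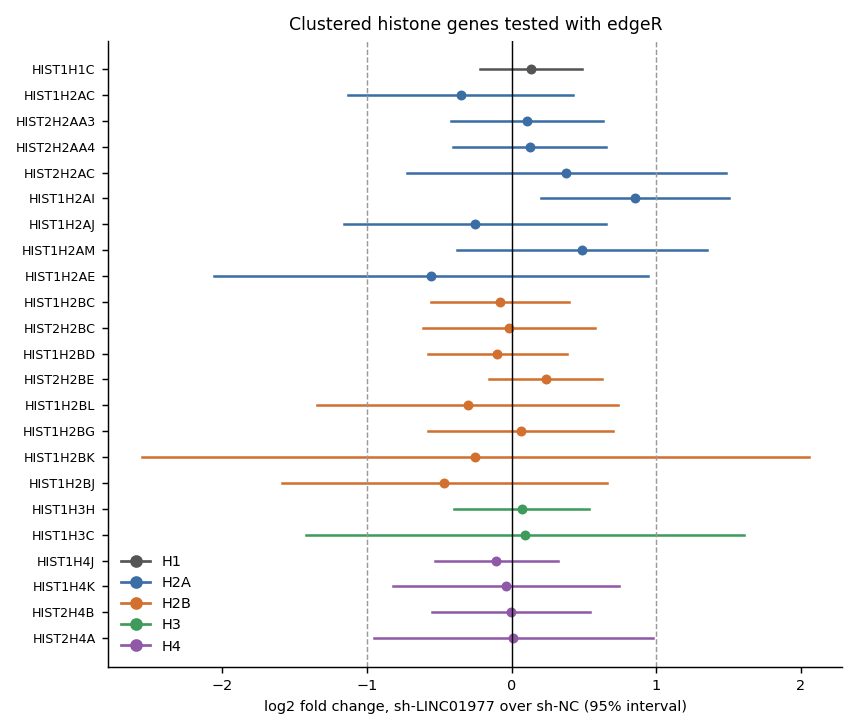
Log2 fold change (sh-LINC01977 over sh-NC) with its 95% interval from edgeR for the 23 tested clustered histone genes, coloured by class, with dashed lines at a fold change of 2. Of the 23 intervals, 22 hold 0, and that of HIST1H2AI, from 0.20 to 1.51, does not.

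Summed by class, the levels of the 2 groups overlapped in every class. Levels of single genes and sums from here on are CPM after TMM scaling over the tested genes, unless FPKM is named. The H1 genes summed to 9.38, 12.7 and 10.9 in sh-NC and 11.4, 11.3 and 14.1 in sh-LINC01977 libraries. The H2A genes summed to 16.7 ± 3.45 and 15.7 ± 2.72 (SD, n = 3), and the H2B genes to 14.4 ± 0.98 and 14.4 ± 0.22. The H3 genes were the lowest class, with 4.33 ± 0.72 and 4.96 ± 0.31, and the H4 genes summed to 11.1 ± 1.53 and 10.7 ± 1.01. All 55 members came to 57.5 ± 4.55 in sh-NC and 58.0 ± 1.63 in sh-LINC01977 libraries, a ratio of 1.01. The sums are a description of the members and were not tested. In bulk RNA, a change in the share of cells in S phase and a change in histone RNA per cell cannot be told apart.

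**Figure D3:**
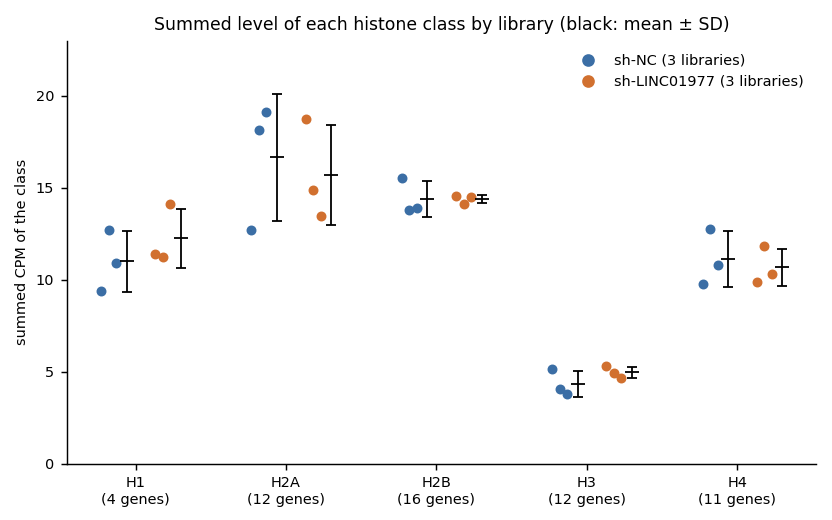
Summed CPM of the members of each histone class in each library (points), with the mean and SD of each group in black, sh-NC in blue and sh-LINC01977 in orange. The ranges of the groups overlap in all 5 classes.

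HIST1H1C (ENSG00000187837, chromosome 6, 26055787 to 26056428) encodes a linker histone. Its FPKM was 11.5, 15.5 and 13.6 in sh-NC and 14.5, 14.01 and 18.1 in sh-LINC01977 libraries. The groups overlapped, and the log2 fold change was 0.13 with a 95% interval from -0.22 to 0.49 (adjusted p = 0.587, edgeR), the narrowest of the 23. The other H1 genes, HIST1H1E, HIST1H1B and HIST1H1D, were close to undetected, with summed counts of 46, 6 and 4 over the 6 libraries.

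Among the H2A genes, which code for near-identical core histones, HIST1H2AC (ENSG00000180573, chromosome 6, 26124145 to 26139116) was highest. In sh-NC it had 258, 456 and 610 counts, and in sh-LINC01977 it had 460, 332 and 272. The sh-NC libraries spanned the whole range, and the log2 fold change of -0.35 had an interval from -1.13 to 0.43 (adjusted p = 0.514, edgeR). The lowest value was that of sh-NC replicate 1. Without that library the log2 fold change was -0.62 (adjusted p = 0.169), and HIST1H2AC was then the 1 member with an unadjusted p under 0.05 in edgeR.

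HIST1H2AI (ENSG00000196747, chromosome 6, 27808199 to 27808701) had the largest log2 fold change of the 23 tested members. The counts came to 31, 37 and 44 in sh-NC and 54, 72 and 81 in sh-LINC01977 libraries, so each knockdown library was above every control library. The level was 0.689 ± 0.104 against 1.25 ± 0.301 CPM (SD, n = 3). The log2 fold change of 0.85 (SE 0.27, adjusted p = 0.0860, edgeR) did not pass the threshold. Over all the alternatives run, the adjusted p lay between 0.0423 and 0.212 and the log2 fold change between 0.55 and 0.998. Of the stretches of 100 bases in its transcript, 57.7% also occur in HIST1H2AJ, whose counts of 27, 37 and 35 against 38, 18 and 29 overlapped (log2 fold change -0.25). How reads were divided between these 2 genes is not given in the sources used here.

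None of the other tested H2A genes passed the test. HIST2H2AA3 and HIST2H2AA4 are copies of 1 gene, and every stretch of 100 bases in the former is found elsewhere. Their counts ran side by side, 127, 97 and 128 against 161, 115 and 111 in HIST2H2AA3 and 132, 93 and 126 against 161, 119 and 111 in HIST2H2AA4, so they count as about 1 measurement. HIST2H2AC held 1 high library, sh-LINC01977 replicate 2 with 126 counts, beside 32 to 58 in the other 5. Its log2 fold change of 0.38 became -0.29 without that library. HIST1H2AM had a log2 fold change of 0.49, with counts of 26, 20 and 24 against 44, 40 and 18. Of its stretches of 100 bases, 84% also occur in HIST1H3J, which is not among the members. HIST1H2AE had the lowest log2 fold change of the 23, -0.55, with counts of 18, 66 and 32 against 35, 39 and 11, and an interval from -2.06 to 0.95.

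H2B proteins are partners of H2A in the nucleosome. HIST1H2BC had 136, 97 and 129 counts in sh-NC and 120, 107 and 122 in sh-LINC01977 libraries, and HIST1H2BD had 130, 112 and 126 against 93, 149 and 114. Both overlapped, with log2 fold changes of -0.08 and -0.10. HIST2H2BC, whose identifier is the one not found in GENCODE 29, had 60, 81 and 98 counts against 94, 83 and 66. Whether this row is a protein-coding gene or a pseudogene was not tested. HIST2H2BE (ENSG00000184678, chromosome 1, 149884459 to 149886652) had 165, 164 and 148 counts in sh-NC and 188, 212 and 182 in sh-LINC01977 libraries. In CPM its groups did not overlap, yet the log2 fold change of 0.24 did not pass the test (adjusted p = 0.379, edgeR). Groups that did not overlap were seen in 2 of 23 tested members (8.70%), HIST1H2AI and HIST2H2BE, beside 37.1% of all tested genes.

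The rest of the H2B genes were lower and more variable. HIST1H2BJ had a log2 fold change of -0.46 and HIST1H2BL one of -0.30, with counts of 38, 22 and 60 against 29, 17 and 40, and of 50, 27 and 32 against 47, 27 and 17. HIST1H2BG, at 76, 44 and 65 against 69, 57 and 70, was at 0.06. HIST1H2BK passed the filter mainly through sh-NC replicate 1, with 38 counts there and 4 to 22 in the other libraries. Its log2 fold change of -0.25 had the widest interval of all, from -2.56 to 2.06, and became 1.65 without that library.

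Genes that share 1 promoter window did not all lie on the same side of 0. HIST1H2BL and HIST1H2AI, with starts 268 bases apart, had log2 fold changes of -0.30 and 0.85. HIST1H2BC and HIST1H2AC, 219 bases apart, had -0.08 and -0.35. HIST1H2BG and HIST1H2AE had 0.06 and -0.55, and HIST2H2BE and HIST2H2AC had 0.24 and 0.38. HIST2H2BC and HIST2H2AA4, 289 bases apart, had -0.02 and 0.12. Apart from that of HIST1H2AI, the 95% interval of each of these genes held 0, so their side of 0 is not settled. The difference within a pair was not tested.

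H3 and H4 form the tetramer at the centre of the nucleosome. HIST1H3H, the main H3 gene, had counts of 91, 105 and 101 in sh-NC and 118, 113 and 92 in sh-LINC01977 libraries. Its log2 fold change was 0.07 with an interval from -0.40 to 0.54. HIST1H3C, the other tested H3 gene, had 26, 6 and 13 counts against 11, 11 and 26 (log2 fold change 0.09). HIST1H4J, the main H4 gene (ENSG00000197238, chromosome 6, 27824108 to 27824480), had 274, 301 and 242 counts against 244, 310 and 239. Its FPKM was 10.6, 13.0 and 8.80 against 9.83, 11.2 and 10.4, and its log2 fold change was -0.10 with an interval from -0.53 to 0.32. HIST1H4K, of which every 100-base stretch is also found in HIST1H4J, had 31, 24 and 45 counts against 39, 25 and 34. In turn, 77.7% of the 100-base stretches of HIST1H4J are also found in HIST1H4K. The near-identical pair HIST2H4A and HIST2H4B had log2 fold changes of 0.01 and -0.0028 and overlap HIST2H3C and HIST2H3A on the other strand.

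The 32 members below the filter were read as counts. Their summed counts over the 6 libraries ran from 1 for HIST3H3, known for expression in testis, to 672 for HIST1H2BN. In 24 of the 32 every library was under 20 counts, and in 18 at least 1 library was at 0. The members below the filter with the highest summed counts were HIST1H2BN, HIST1H3E and HIST1H4H. HIST1H2BN had 112, 97 and 127 counts against 109, 158 and 69, HIST1H3E had 88, 64 and 54 against 89, 108 and 72, and HIST1H4H had 52, 84 and 62 against 47, 59 and 39. All 3 overlapped between groups.

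In 3 low members the groups did not overlap, which makes 5 of all 55, beside 22.8% of all listed genes. HIST1H3G had 8, 4 and 12 counts in sh-NC and none in any sh-LINC01977 library. Against a floor of 3 counts over the sh-LINC01977 group it was 8.23-fold lower. That value allows for no error in the sh-NC counts and is not a bound. In an edgeR fit of all listed genes its unadjusted p was 0.0106 and its adjusted p 0.119. HIST1H3G was the 1 member lower by a fold change of 2 with P of 0.05 in that fit (1.2% of all listed genes). No member passed an adjusted p under 0.05 there (5.36% of all listed genes), and 2 of 55, HIST1H2AI and HIST1H3G, had an unadjusted p under 0.05 (17.2%). HIST1H2AD had 11, 12 and 17 counts against 3, 5 and 6 and lies inside 1 of the 2 genes listed as HIST1H3D, with 97.6% of its 100-base stretches shared. HIST1H2BH had 8, 8 and 11 counts against 18, 12 and 12. In the exact two-sided permutation test each of these had p = 0.1, the smallest that 3 libraries against 3 allow. Every count of HIST1H3G was a multiple of 4, as were 44.1% of the members' counts from 1 to 20 and 38.4% of such counts over all listed genes, so a count at this level may not be 1 independent fragment.

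The libraries differed in their content of other RNAs without a poly(A) tail. The 23 such RNAs listed, among them RN7SK, RMRP and RPPH1, summed to 4.57, 26.1 and 16.2 CPM in sh-NC and to 16.1, 14.9 and 16.5 in sh-LINC01977 libraries. RN7SK, which regulates transcription elongation, had 0 counts in sh-NC replicate 1 and 62 to 166 in the other 5 libraries. In the same library the clustered histone genes summed to 52.5 CPM beside 57.0 to 61.5 in the others, with the H1, H2A and H4 sums at their lowest, the H2B sum at its highest of 15.5 CPM and the H3 sum second highest at 5.14 CPM. In log2(CPM + 0.5), the median deviation of sh-NC replicate 1 from its group mean was -0.0008 over the 23 tested members. Over the 10 tested RNAs without a poly(A) tail it was -0.57. The part of the difference in these RNAs in the values of HIST1H2AC was not tested. Of the 10 tested RNAs on this list none passed in either direction by edgeR, DESeq2 or limma, and none had an unadjusted p under 0.05 in edgeR.

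The genes that make, cut and degrade clustered histone mRNA were read beside the 7.05% of all tested genes that were higher and the 8.07% that were lower by edgeR. NPAT, the coactivator of these genes in S phase, had a log2 fold change of 0.13 (adjusted p = 0.478, edgeR). Of 11 genes for histone gene transcription none was higher and 1 was lower, CDC25A, a phosphatase that activates CDK2 (log2 fold change -0.31, adjusted p = 0.0357, edgeR). DESeq2 also called CDC25A lower and limma did not. SLBP, which binds the stem-loops printed above, was at 67.0, 65.2 and 73.5 CPM in sh-NC and at 64.2, 66.3 and 68.6 in sh-LINC01977 libraries (log2 fold change -0.05, adjusted p = 0.661). Of 23 genes for 3′ end processing of histone mRNA none passed in either direction by edgeR, and the median log2 fold change was -0.02. At an unadjusted p under 0.05 there were 4, beside 30.5% of all tested genes, while DESeq2 called 1 higher (CPSF3) and 2 lower (LSM11 and SRRT) and limma CPSF3 alone. Of 21 genes for histone mRNA translation and decay 2 were higher and 1 was lower. The higher were DIS3L2, a 3′ exonuclease (log2 fold change 0.81), and DCP2, a decapping enzyme (0.50), and the lower was LSM5, a subunit of the LSM ring (-0.32). DESeq2 and limma also called PNRC2, a partner of the decapping complex, higher. Of all 13452 tested genes DESeq2 called 1360 higher and 1485 lower, and limma 1269 and 729.

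Of 41 S-phase genes 6 were higher and none lower (edgeR, adjusted p under 0.05), beside 7.05% and 8.07% of all tested genes, with a median log2 fold change of 0.10. They included MCM6, a subunit of the replicative helicase, at 40.1, 37.1 and 38.1 CPM in sh-NC and 63.2, 66.3 and 64.4 in sh-LINC01977 libraries (log2 fold change 0.75, adjusted p = 0.001001). RRM2, a ribonucleotide reductase subunit, rose with a log2 fold change of 1.28 (adjusted p = 0.0415) and RRM1 with one of 0.41. Of 25 genes of G2 and mitosis 3 were higher by edgeR, TOP2A, BUB1 and HMMR, and none was lower. DESeq2 called 5 of them higher and limma 7. In the S-phase list DESeq2 and limma each called 8 higher. These 2 tools also called more of the 13452 tested genes higher, 1360 by DESeq2 and 1269 by limma beside 948 by edgeR. Whether the clustered histone genes differ from these lists was not tested.

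As a sum, histone genes outside the clusters stood far above the clustered genes in the RNA captured here. Whether poly(A) RNA was selected is not given, so the 2 sets may not have been captured alike. The 18 listed genes outside the clusters summed to 2068 to 2129 CPM in sh-NC and 2601 to 2664 in sh-LINC01977 libraries. Of 11 tested, 2 were higher and none lower by edgeR, beside 7.05% and 8.07% of all tested genes. DESeq2 called 3 higher and 1 lower, and limma on log2(FPKM + 0.1) called 3 higher and none lower. Among all 13452 tested genes DESeq2 called 1360 higher and 1485 lower, and limma 1269 and 729. H1F0, a linker histone of quiescent and differentiated cells, rose from 943, 989 and 895 CPM to 1390, 1413 and 1313 (log2 fold change 0.54, adjusted p = 0.00156, edgeR). Its mean FPKM of 402.6 over the 6 libraries stood beside 14.5 for HIST1H1C, the highest clustered member. H2AFJ, an H2A variant, rose from 17.0, 16.3 and 17.7 to 23.1, 23.04 and 26.8 CPM (log2 fold change 0.52, adjusted p = 0.0128). H2AFX, the variant phosphorylated at DNA breaks, was at -0.26 (adjusted p = 0.0552). H1F0 held a large part of the sums and of their rise. Over the 11 tested genes the median log2 fold change was 0.15, with 9 above 0.

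Of 25 histone chaperones and their partners 3 were higher and 3 lower by edgeR, beside 7.05% and 8.07% of all tested genes. CABIN1, a subunit of the HIRA complex, was higher with a log2 fold change of 0.53, ASF1B, which hands on H3 and H4, with 0.29, and HAT1, which acetylates new H4, with 0.21. SSRP1, a subunit of FACT, was lower at -0.42, DAXX, a chaperone of the H3 variant encoded by H3F3A, at -0.39, and NAP1L1, a carrier of H2A and H2B, at -0.26. DESeq2 and limma also called NAP1L4, of the same family, higher, and limma did not call DAXX.

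**Figure D4:**
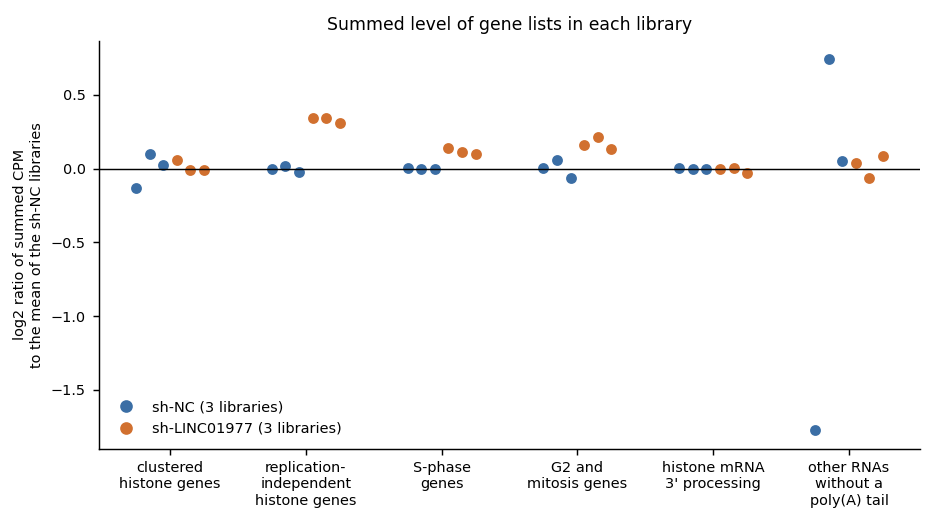
Log2 ratio of the summed CPM of 6 gene lists in each library to the mean of the sh-NC libraries, sh-NC in blue and sh-LINC01977 in orange. The clustered histone genes have ratios around 0 in both groups. The sum of the replication-independent histone genes, of which H1F0 is a large part, lies higher in all 3 sh-LINC01977 libraries. For the other RNAs without a poly(A) tail, sh-NC replicate 1 is lowest.

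The targeted gene, LINC01977, had 4, 0 and 16 counts in sh-NC and 0, 0 and 4 in sh-LINC01977 libraries, so a reduction was not detectable at this depth (exact two-sided permutation test, p = 0.7), and libraries were grouped by their labels. All 14 liver markers passed the filter and 8 of them were lower in sh-LINC01977 libraries by edgeR, DESeq2 and limma. Their sums were 28029 to 29385 CPM in sh-NC and 21434 to 22003 in sh-LINC01977 libraries. Over all 13452 tested genes edgeR called 7.05% higher and 8.07% lower, DESeq2 1360 higher and 1485 lower, and limma 1269 and 729. Of 6 mesenchymal markers 2 were tested and 1, PDGFRB, was higher by edgeR and both, with COL1A1, by DESeq2 and limma, with sums of 34.3 to 48.7 CPM in sh-NC and 59.6 to 84.3 in sh-LINC01977 libraries. No endothelial marker passed the filter, and of 4 tested blood markers LYZ was lower, while DESeq2 and limma also called CD68 higher. The part of these differences in the values of the clustered histone genes was not tested.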

How the data were processed

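RNA was sequenced in 6 HepG2 libraries, 3 sh-NC and 3 sh-LINC01977. Total RNA was taken up in TRIzol and read on an Illumina HiSeq instrument, and 1 table was deposited. The submitters' processing notes name bcl2fastq 2.0, HISAT2, StringTie, DESeq2, limma and build hg38, with no role given. Per gene, the deposited counts are whole numbers that the authors had not normalized. The deposited FPKM were scaled by the authors to transcript length and depth. Library preparation beyond standard Illumina protocols and strandedness are not given in the sources used here, so a gene and its antisense partner cannot be told apart.

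The counts were fitted in R 4.3.3 with edgeR 4.0.16, using TMM scaling and its quasi-likelihood test, and p-values were adjusted by Benjamini-Hochberg over all genes of mean FPKM 0.5 or more. Genes below that filter were read from a fit of all listed genes. Alternatives were DESeq2 1.42.0, limma 3.58.1 on log2(FPKM + 0.1) or log2(FPKM + 1), other scalings and filters, a replicate block, leaving out each library, and, chosen after seeing the data, merging near-identical copies. The main edgeR fit, DESeq2 and limma on log2(FPKM + 0.1) were run on simulated data, and the other alternatives were not. Replicate numbers did not pair the libraries. Named genes were the 3 highest members of each class, the 5 largest changes in each direction, the 3 highest members below the filter, NPAT, SLBP, LINC01977 and up to 3 changed genes of each other list. Further members and genes named were chosen after their values were seen. The members and lists were chosen with earlier results of these data known.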

Additional observations from a re-analysis of the deposited data

How the results depend on the processing

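The counts of clustered histone genes at an adjusted p under 0.05 were 0 higher and 0 lower in edgeR, in DESeq2, with each library left out, with other scalings and filters, and with near-identical copies merged, an alternative added after seeing the data. With limma on log2(FPKM + 0.1) and on log2(FPKM + 1), 1 was higher, HIST1H2AI, with adjusted p of 0.0423 and 0.0462. At a fold change of 2 with P of 0.05, 1 was lower with no filter (HIST1H3G) and 1 with edgeR's own filter on counts (HIST1H2AD), where more low genes were tested. The median log2 fold change of the members was 0.06 when scaled to library totals, which also moved the median of all tested genes to 0.065. With limma on log2(FPKM + 0.1) it was 0.12 for the members and 0.063 for all tested genes. DESeq2 gave no adjusted p for 3 members. Of 23 tested members 7 kept the sign of the log2 fold change in every alternative in which they were tested and 16 took the other sign in at least 1 of the 16 alternatives. Replicate numbers did not pair the libraries (correlations of deviations -0.034, 0.0051 and 0.061). With the replicate block 0 members were higher and 0 lower, HIST1H2AI was at 0.84 (adjusted p = 0.109) and 636 genes were higher and 754 lower over all tested genes, beside 948 and 1085 without it. The log2 ratio of the H2A sum, -0.09, took the other sign as summed FPKM (0.09), without HIST1H2AC (0.13) and without replicate 3 of either group (0.02 and 0.01), and the sums of H2B, H4 and all members, at -0.00070, -0.06 and 0.01, also took the other sign under some alternatives, each move being within the spread between replicates. The H1 sum without HIST1H1C was 0.0743 CPM in sh-NC, where 2 libraries were at 0, and 0.270 CPM in sh-LINC01977, and its ratio is not interpreted. Of the 32 members below the filter, 24 were under 20 counts in every library, where depth limits what could be detected.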
